A study of Mus musculus with 30 samples.

Results

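Odorant receptor (OR) genes of the Olfr7 cluster on mouse chromosome 9 were examined in NanoString counts of whole olfactory mucosa. The genes are the OR rows of the deposited table that lie from Olfr883 to Olfr984 in the gene order of the study's OR naming table, without 8 genes, which leaves 31 of the 564 OR genes measured. The genes left out are Olfr893, Olfr902, Olfr906, Olfr909, Olfr916, Olfr917, Olfr958 and Olfr975. They were left out with their values known. Among them, Olfr902, Olfr906, Olfr917 and Olfr958 kept signal above background in every mouse that lacks the cluster, and Olfr893, Olfr902, Olfr909, Olfr916 and Olfr975 varied widely between mice of mixed background. A low residual signal or a narrow spread over the 31 genes is therefore partly fixed by the choice, and the left-out genes are given beside them where it matters.

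The 30 mice, aged 21 days, form 5 groups of 6, with 1 μg of RNA of a single mouse in each lane. Wild-type mice of strain 129SvEvTac and homozygous ΔOlfr7Δ mice, which lack the cluster and are inbred on 129SvEv, shared cartridge MK38. Mice homozygous for both ΔP (Berry) and ΔH, here ΔHxΔP mice, shared cartridge MK29 with wild-type companions of that strain, and wild-type companions of the ΔH strain filled lanes of cartridge MK37. ΔH and ΔP remove the H and P elements, regulatory sequences of OR clusters on other chromosomes. The background of these 18 mice is mixed C57BL/6J x 129SvEv. On MK38 and MK29 mutants filled lanes 7 to 12 and wild types the first 6, so genotype cannot be told apart from position on the cartridge, nor strain background or colony from cartridge. Each group held males and females, with 2 to 5 males of 6.

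An OR is a G protein-coupled receptor of olfactory sensory neurons. Each mature neuron expresses 1 allele of 1 OR gene, so the RNA level of a gene in whole mucosa depends both on how many neurons chose it and on how much RNA each makes, and fewer cells and less RNA per cell cannot be told apart in these data. OR genes lie in clusters, and related receptors, grouped here by their MOR family names, are often neighbours. The olfactory marker protein Omp and the transduction genes Cnga2, Adcy3, Gnal and Ano2, which mature olfactory sensory neurons express, stood at least 109 times above the lane background in every lane.

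Summed raw counts over OR genes ran from 618163 to 1013430 per lane. Counts were scaled on the 5 genes just named, and the background of a lane, the mean plus 2 SD of its 8 negative controls, lay between 32.4 and 56.2 scaled counts. As a check of the ΔHxΔP label, Olfr1507 of the H cluster and Olfr2 of the P cluster averaged 41.3 ± 7.66 and 49.6 ± 10.2 scaled counts (SD, n = 6) in ΔHxΔP mice, against 9649 ± 1392 and 3874 ± 235 in wild types on MK29. Counts of different genes come from different probes, so a higher count of 1 gene than of another also holds the efficiency of its probe.

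Each gene was read with a capture and a reporter probe, of 39 to 50 bases over these 62 probes. The probes of the receptors on which the results below turn are shown 5′ to 3′ as deposited, with the longest exact run shared with a probe of any other OR gene of the table in capitals. Olfr969 had the highest count in wild-type 129 mice and Olfr149 the lowest, Olfr982 kept the most signal in ΔOlfr7Δ mice, Olfr921 differed most between 129 and mixed mice, and Olfr25, Olfr905 and Olfr894 varied between mice of mixed background.
Olfr969 capture: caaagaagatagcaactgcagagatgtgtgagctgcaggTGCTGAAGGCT
Olfr969 reporter: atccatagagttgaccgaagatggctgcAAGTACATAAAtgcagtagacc
Olfr149 capture: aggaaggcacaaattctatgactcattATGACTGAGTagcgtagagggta
Olfr149 reporter: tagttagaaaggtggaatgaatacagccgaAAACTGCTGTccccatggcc
Olfr982 capture: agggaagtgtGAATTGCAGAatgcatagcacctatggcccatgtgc
Olfr982 reporter: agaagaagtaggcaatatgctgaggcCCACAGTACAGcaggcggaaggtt
Olfr921 capture: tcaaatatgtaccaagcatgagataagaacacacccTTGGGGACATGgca
Olfr921 reporter: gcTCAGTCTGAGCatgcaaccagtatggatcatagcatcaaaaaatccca
Olfr25 capture: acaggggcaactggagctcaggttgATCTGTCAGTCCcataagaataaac
Olfr25 reporter: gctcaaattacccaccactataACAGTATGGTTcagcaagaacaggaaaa
Olfr905 capture: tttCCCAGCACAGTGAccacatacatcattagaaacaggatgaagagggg
Olfr905 reporter: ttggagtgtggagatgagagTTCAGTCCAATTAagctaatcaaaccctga
Olfr894 capture: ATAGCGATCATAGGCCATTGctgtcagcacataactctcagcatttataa
Olfr894 reporter: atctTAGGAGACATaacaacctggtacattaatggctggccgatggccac
Olfr1465 capture: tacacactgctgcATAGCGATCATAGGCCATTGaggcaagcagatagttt

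The longest shared run had a median of 11 bases over the 62 probes, and only 3 probes had a run of 15 or more. The longest, of 20 bases, links the capture probe of Olfr894 with that of Olfr1465, an OR gene outside the cluster that is shown for this reason. The run holds CGATCATA, the reverse complement of TATGATCG, which spells part of a stretch of the coding sequence that OR genes share. TATGATCG, its variant TATGACCG and CCCATGTA, another shared stretch, were searched on both strands. As written they were found in 0 of 564 probe pairs, and as reverse complements in 1.42%, 1.95% and 2.30% of them. In ΔOlfr7Δ mice, which keep Olfr1465, the count of Olfr894 was 14.0 to 32.3, and no lane exceeded its background. The level of Olfr1465 is not given here, and whether its RNA binds this probe was not tested.

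In wild-type 129 mice the 31 receptors spanned from 201 to 2774 scaled counts, and all 31 passed the study's limit for an informative gene in each main comparison. That limit is a wild-type median of 100 normalized counts, which are scaled counts less the lane background. 13 receptors averaged 1000 or more, 14 lay from 500 to 1000, and 4 under 500. The levels are given along the cluster by receptor family, as the mean ± SD of 6 wild-type 129 mice. Of family MOR162, Olfr885 had 338 ± 56.5 and Olfr901 1003 ± 94.6. Of MOR170, Olfr894 had 716 ± 79.1, Olfr895 1189 ± 68.6 and Olfr25 438 ± 36.3, so that 3 genes close together in the cluster lay on 3 different levels. Of MOR164, Olfr147 had 823 ± 32.5 and Olfr923 1642 ± 141. MOR167 was represented by Olfr905, with 906 ± 80.7, and MOR161 by Olfr922, with 853 ± 71.5. MOR165 held some of the higher counts: Olfr910 had 2027 ± 64.5, Olfr921 1311 ± 111, Olfr914 1085 ± 76.3 and Olfr907 712 ± 66.6.

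The families MOR171 and MOR224 had 7 receptors each. In MOR171 the counts were 2774 ± 121 for Olfr969, 2015 ± 120 for Olfr965, 1473 ± 136 for Olfr974, 1207 ± 78.2 for Olfr957, 605 ± 48.5 for Olfr938, 536 ± 36.5 for Olfr967 and 505 ± 25.3 for Olfr930. The highest and one of the lowest receptors of the cluster thus belong to the same family. In MOR224 they were 1735 ± 60.0 for Olfr959, 1159 ± 59.0 for Olfr961, 1023 ± 85.8 for Olfr934, 825 ± 99.3 for Olfr963, 551 ± 60.3 for Olfr148, 469 ± 34.2 for Olfr960 and 201 ± 28.1 for Olfr149. Olfr148 and Olfr149 are the receptors long known as M30 and M31. At the far end of the cluster, Olfr981, Olfr982 and Olfr979 of MOR223 had 637 ± 40.7, 584 ± 33.9 and 507 ± 75.3, and Olfr984 of MOR239 had 609 ± 64.4.

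The order of levels was similar in the other groups. Spearman's rho of the group means over the 31 receptors lay between 0.85 (129 and MK37 wild type) and 0.94 (129 and ΔHxΔP) for the 6 pairs of groups other than ΔOlfr7Δ. This is a description across genes, which share their probes between groups and are no independent replicates. The plot of every receptor in each mouse shows the levels and the loss in ΔOlfr7Δ mice together.

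**Figure D1:**
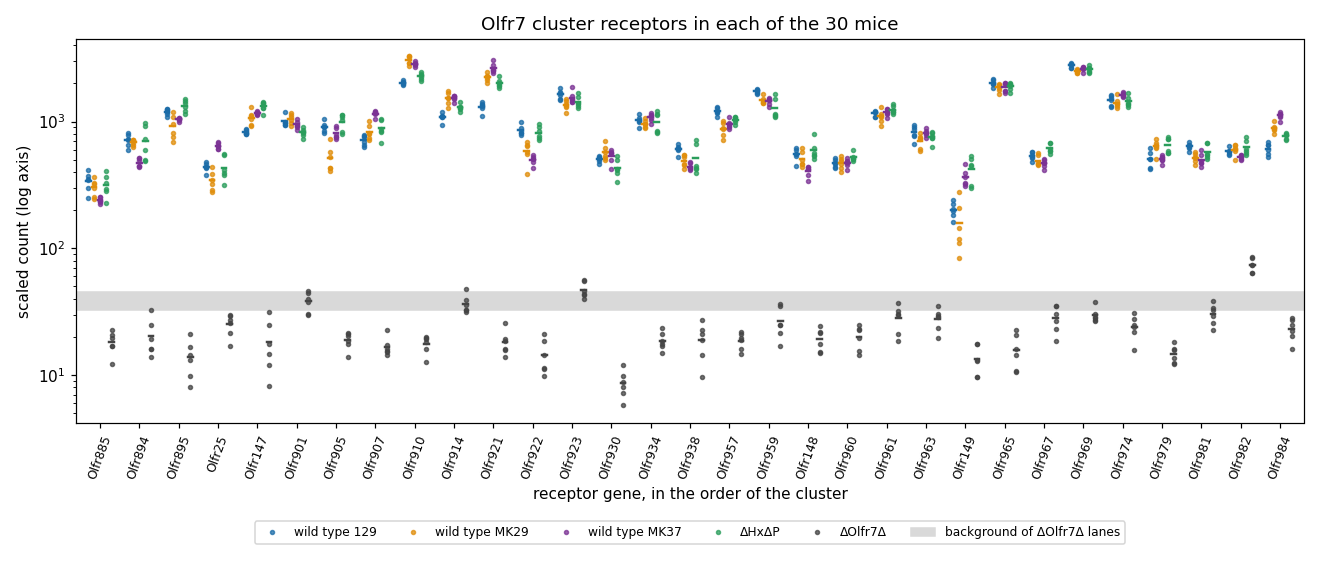
Scaled counts (log axis) of the 31 receptors in the order of the cluster, 1 point per mouse and a bar at the mean of each group of 6. The grey band is the range of the lane backgrounds of the ΔOlfr7Δ mice, 32.4 to 45.2, and Olfr982, with 63.4 to 85.0, is the receptor whose ΔOlfr7Δ points all lie clearly above it.

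All 31 receptors were lost in ΔOlfr7Δ mice, whose genome lacks these genes. The loss was thus fixed by the strain, and the calls below describe probe background rather than test an effect. limma called 31 of 31 lower and 0 higher against wild-type 129 mice at a Benjamini-Hochberg adjusted p under 0.05, where 35.5% of the 552 OR genes tested were called, 12.1% lower and 23.4% higher. For all 31 the 6 mutant mice lay below the 6 wild-type mice, whereas the groups did not overlap for 18.2% of all OR genes. For 25 receptors no ΔOlfr7Δ lane exceeded its background. Against the mean background of these lanes, 37.8, they were at least 5.31-fold (Olfr149) to at least 53.6-fold (Olfr910) higher in wild-type mice, with a median of at least 21.7-fold. The wild-type level sets each of these bounds.

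The 5 highest receptors in wild-type 129 mice are given first. Olfr969 ran from 2623 (median 2810) to 2919 in wild-type 129 mice and from 26.7 to 37.6 in ΔOlfr7Δ mice, and 1 of its 6 mutant lanes was above background. Its log2 difference was -6.50 ± 0.09 (SE, adjusted p = 3.28e-30). Olfr910 ran from 1942 (median 2027) to 2138 and fell to 12.8 to 20.1, a log2 difference of -6.78 ± 0.11 (adjusted p = 5.71e-29). Olfr965 ran from 1825 (2004) to 2158 and fell to 10.5 to 22.5. Olfr959 ran from 1656 (1739) to 1812 and fell to 17.0 to 36.3. Both were fully apart between the groups, as was Olfr923, which ran from 1472 (1652) to 1848 and fell to 39.7 to 55.9. Their log2 differences were -6.96 ± 0.14, -6.02 ± 0.13 and -5.10 ± 0.10 (adjusted p of 1.91e-26, 7.59e-26 and 6.37e-27). Where mutant lanes lie below background the fitted difference is not a bound.

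Among the 5 lowest receptors, Olfr149 ran from 162 (median 199) to 241 in wild-type 129 mice and from 9.72 to 17.6 in ΔOlfr7Δ mice, with a log2 difference of -3.83 ± 0.18 (adjusted p = 1.42e-17). Olfr885 ran from 251 (348) to 413 in wild-type mice, and Olfr25 from 376 (436) to 483. Olfr960 ran from 429 (464) to 518, and Olfr930 from 464 (509) to 536. These 4 lay between 5.76 and 29.6 in ΔOlfr7Δ mice, with differences of -4.15 ± 0.16, -4.09 ± 0.14, -4.51 ± 0.14 and -5.75 ± 0.16 (adjusted p of 7.24e-20, 3.48e-21, 4.27e-22 and 1.34e-23). No wild-type mouse came near a mutant one.

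6 receptors kept counts above background in ΔOlfr7Δ lanes. Olfr982 was above it in 6 of 6 lanes, with 63.4 to 85.0 counts, 12.7% of its wild-type mean and a ratio of 7.89 between the means. Olfr923 was above it in 6 of 6 lanes, with 39.7 to 55.9. Olfr901 and Olfr914 were above it in 3 lanes each, and Olfr969 and Olfr981 in 1. Olfr923 and Olfr901 were 34.8-fold and 26.4-fold higher in wild-type mice. Against the mean background, which exceeded their own mutant mean, Olfr914, Olfr969 and Olfr981 were at least 28.7-fold, at least 73.3-fold and at least 16.8-fold higher. Of the 6 left-out genes measured on MK38, 4 were above background in all 6 lanes, from 64.0 counts for Olfr917 to 112 for Olfr906. The longest run that a probe of Olfr982 shared with another OR probe was 11 bases, and the cause of its remaining counts was not tested.

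Summed over the 31 receptors, wild-type 129 mice had 30460 ± 1457 scaled counts, against 744 ± 78.1 after deletion. The receptors are 5.65% of the 549 OR genes measured in all lanes and held 3.94% ± 0.0509 of the OR counts in wild-type 129 mice (n = 6), which fell to 0.0936% ± 0.00756. The share was 3.75% ± 0.0910 in the wild-type mice of MK29, 3.70% ± 0.102 in those of MK37 and 4.12% ± 0.0880 in ΔHxΔP mice. In ΔHxΔP mice every value of the share (3.99% to 4.23%) was above those of both mixed wild-type groups (3.62% to 3.86%), while the summed member counts, 31584 ± 1294, lay between those of MK29 (30656 ± 1988) and MK37 (32479 ± 1078). Summed counts over all OR genes averaged lowest in ΔHxΔP mice, with 768086 ± 45800 against 817498 ± 35674 and 878113 ± 8861. ΔHxΔP mice 1 to 4 had totals of 727598 to 769205, below the range of MK29 (771104 to 851920). Mice 5 and 6 had 807053 and 838001, within that range, and shares of 4.08% and 3.99%. That total includes H and P cluster genes such as Olfr1507 and Olfr2. These averaged 9649 and 3874 counts in MK29 and 41.3 and 49.6 in ΔHxΔP mice. The cause of the larger share was not tested, and no other set of OR genes is given beside it.

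The OR genes named here from outside the range were not lost. Olfr985, beyond Olfr984, averaged 943 ± 68.2 in ΔOlfr7Δ mice and 572 ± 51.4 in wild-type 129 mice, a log2 difference of 0.72 ± 0.07 (adjusted p = 3.40e-09), and 749 ± 97.9 and 987 ± 89.7 in mixed wild types on MK29 and MK37. Olfr986 had 3573 ± 73.9 and 3420 ± 102 in ΔOlfr7Δ and wild-type 129 mice. Before the range in the gene order, Olfr18 had 428 ± 46.7 and 469 ± 41.7, and Olfr873 2091 ± 183 and 2195 ± 99.6. Olfr986, Olfr18 and Olfr873 were not called. The distance of Olfr18 and Olfr873 from the range is not given here, so they are not shown to flank the deletion.

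Many receptors of the cluster differed between wild-type mice of strain 129 and of mixed background, though a smaller share than of all OR genes. limma called 19 of the 31 (61.3%), where 77.0% of the 549 OR genes tested were called. 13 were higher in 129 mice and 6 lower, where 37.3% of all OR genes were higher and 39.7% lower. Groups did not overlap for 7 of the 31, Olfr922 and Olfr959 higher and Olfr147, Olfr910, Olfr914, Olfr921 and Olfr984 lower, beside 38.3% of all OR genes. The median log2 difference was 0.06 over the 31 receptors and -0.00 over all OR genes. With scaling on the positive controls alone the split of calls was 10 higher and 8 lower.

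Olfr921 of MOR165 showed the largest difference. It ran from 1113 (median 1343) to 1435 in 129 mice, from 1996 (2244) to 2475 in MK29 and from 2395 (2557) to 3066 in MK37. The 12 mixed mice all lay above the 6 of strain 129, with a log2 difference of -0.89 ± 0.06 (129 minus mixed, adjusted p = 1.41e-12). ΔHxΔP mice, of the same mixed background, ran from 1850 (1990) to 2305.

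The other 3 receptors of MOR165 among the 31 were also lower in 129 mice. Olfr910 ran from 1942 (2027) to 2138 in 129 mice against 2727 (3058) to 3268 in MK29 and 2686 (2845) to 3018 in MK37, a difference of -0.54 ± 0.05 (adjusted p = 1.45e-10). Olfr914 ran from 945 (1097) to 1179 against 1268 (1532) to 1748 and 1388 (1569) to 1603, a difference of -0.50 ± 0.06 (adjusted p = 9.73e-08). Olfr907 ran from 624 (721) to 778 against 714 (808) to 1003 and 1044 (1179) to 1203, a difference of -0.46 ± 0.07 (adjusted p = 1.95e-06). Its 129 values overlapped those of MK29 and lay below those of MK37. The left-out Olfr909 of this family has no value on MK38, the family was singled out after its values were seen, and it was not tested as a group.

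Olfr984, at the end of the cluster, ran from 522 (621) to 684 in 129 mice, from 799 (883) to 1014 in MK29 and from 999 (1131) to 1198 in MK37. The groups did not overlap and the difference was -0.71 ± 0.06 (adjusted p = 3.42e-10). Olfr922 went the other way. It ran from 786 (829) to 983 in 129 mice, above the 387 (605) to 695 of MK29 and the 430 (502) to 545 of MK37, a difference of 0.67 ± 0.09 (adjusted p = 3.95e-07).

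Other receptors showed no such difference. Olfr934 and Olfr901 had log2 differences of 0.00 ± 0.06 and 0.01 ± 0.06, and Olfr960 of -0.01 ± 0.07. Olfr149 and Olfr25 were not called against the mean of both mixed groups, with adjusted p of 0.287 and 0.289, but their differences from the mixed groups were of opposite sign. Against MK29 alone the difference of Olfr149 was 0.46 and that of Olfr25 0.37, and against MK37 alone they were -0.85 and -0.56, each of them called.

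The 2 mixed wild-type groups differed in 14 of the 31 receptors (45.2%), beside 44.8% of the 549 OR genes. 9 were higher in MK37 and 5 lower, where 31.7% and 13.1% of all OR genes were. The median log2 difference over all OR genes was 0.10 and over the 31 receptors 0.02. This split rests on the scaling: with the positive controls alone it was 12 higher and 2 lower, and with the median of ratios over OR genes outside the cluster it was 5 higher and 13 lower. For 6 of the 31 the groups did not overlap, Olfr25, Olfr905, Olfr907 and Olfr149 higher in MK37 and Olfr894 and Olfr148 lower, beside 20.1% of all OR genes.

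Olfr149 had the largest difference. It ran from 83.8 (median 132) to 278 in MK29 and from 313 (349) to 463 in MK37, a log2 difference of 1.31 ± 0.20 (MK37 minus MK29, adjusted p = 1.07e-05). The lower mice of MK29 stood little above the background of their lanes, at 2.0 times in the lowest case. Olfr25 ran from 277 (335) to 438 in MK29 and from 606 (639) to 694 in MK37, a difference of 0.92 ± 0.10 (adjusted p = 8.76e-08).

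Olfr905 ran from 410 (476) to 724 in MK29 and from 725 (773) to 923 in MK37, a difference of 0.67 ± 0.11 (adjusted p = 3.08e-05), and its groups were barely apart. Olfr907 ran from 714 (808) to 1003 and from 1044 (1179) to 1203, a difference of 0.48 ± 0.08 (adjusted p = 3.48e-05). Olfr894 was lower in MK37. It ran from 626 (697) to 719 in MK29 and from 437 (471) to 512 in MK37, a difference of -0.53 ± 0.08 (adjusted p = 6.95e-06). Its 129 values, 601 (720) to 811, overlapped those of MK29 and lay above those of MK37.

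**Figure D2:**
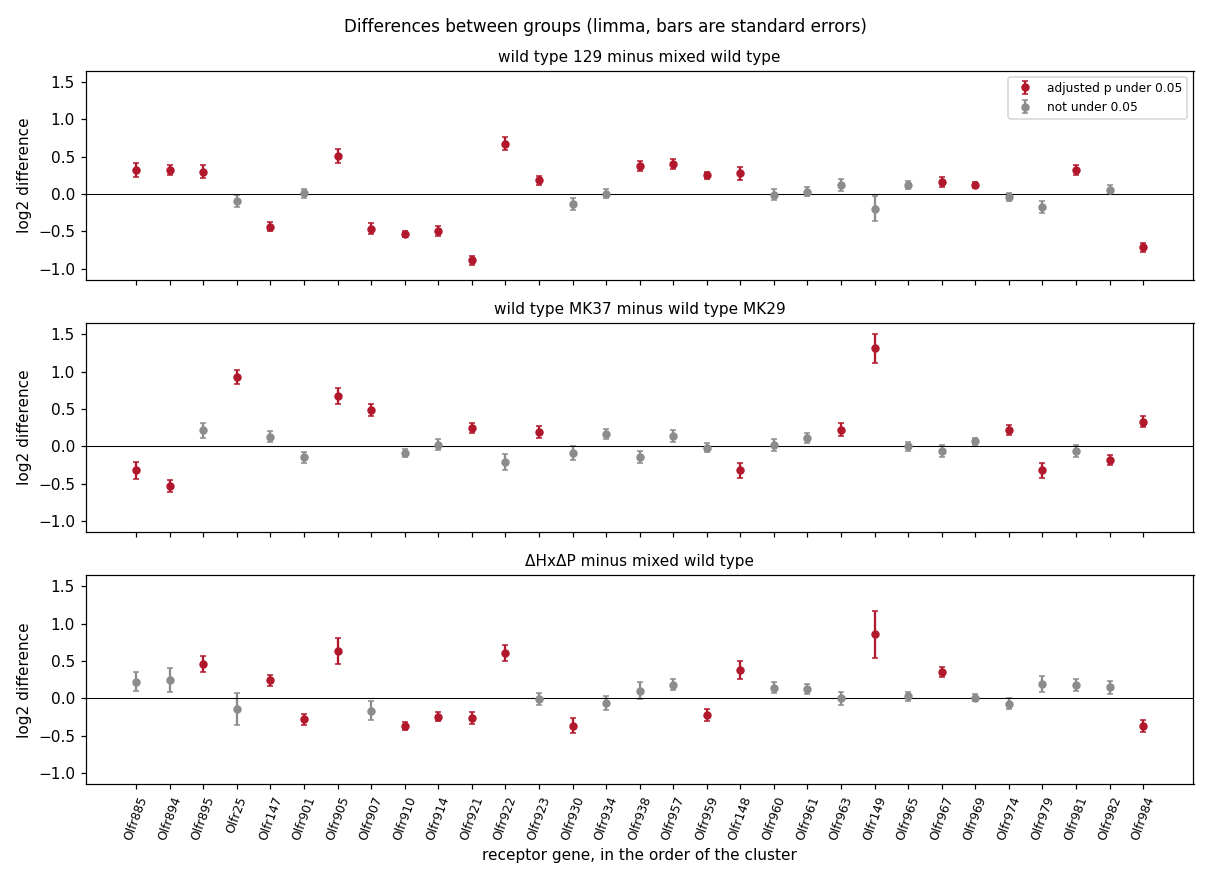
Log2 differences of the 31 receptors in the order of the cluster between 129 and mixed wild-type mice (top), between the wild-type mice of MK37 and MK29 (middle) and between ΔHxΔP and mixed wild-type mice (bottom), with standard errors from limma and red points for an adjusted p under 0.05. Olfr921 and Olfr984 lie lowest in the top panel, at -0.89 and -0.71, and Olfr149 highest in the middle and bottom panels, at 1.31 and 0.86.

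In ΔHxΔP mice, in which the deleted elements lie on other chromosomes, receptors of chromosome 9 differed in both directions. 14 of the 31 (45.2%) were called against the 12 mixed wild-type mice, beside 34.1% of 557 OR genes, 7 higher and 7 lower, where 10.2% of all OR genes were higher and 23.9% lower. The differences ran from -0.37 to 0.86 on the log2 scale, with a median of 0.10 over the receptors and -0.06 over all OR genes, and none passed tTREAT, the study's test against a minimum fold change, at a fold change of 1.5 and p of 0.01. With the median of ratios over OR genes outside the cluster the split was 14 higher and 3 lower, and with the positive controls alone 7 higher and 4 lower. The ΔHxΔP mice share their cartridge and colony with MK29 only. Against MK29 alone 10 receptors were called, beside 26.8% of 553 OR genes, and against MK37 alone 19, beside 45.2% of 557. The groups did not overlap for 2 of the 31, Olfr922 higher and Olfr910 lower, beside 9.14% of all OR genes.

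Olfr910 ran from 2083 (median 2283) to 2477 in ΔHxΔP mice, below every mixed wild-type mouse, with a log2 difference of -0.37 ± 0.05 (adjusted p = 1.76e-05) and of -0.42 against MK29 alone. Olfr922 ran from 712 (806) to 952, above every mixed wild-type mouse, with a difference of 0.61 ± 0.11 (adjusted p = 0.000210) and of 0.51 against MK29 alone. Both lay nearer than the mixed wild-type mice to the values of strain 129 (1942 to 2138 for Olfr910 and 786 to 983 for Olfr922), and the ranges of ΔHxΔP and 129 mice overlapped for both.

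Olfr967 ran from 553 (595) to 682 in ΔHxΔP mice, from 453 (464) to 564 in MK29 and from 415 (473) to 506 in MK37, a difference of 0.35 ± 0.07 (adjusted p = 0.000835). Olfr895 ran from 1148 (1345) to 1516, from 683 (887) to 1194 and from 993 (1050) to 1070, a difference of 0.46 ± 0.10 (adjusted p = 0.00204). Olfr984 ran from 718 (784) to 807, a difference of -0.37 ± 0.09 (adjusted p = 0.00231). Against MK29 alone the difference of Olfr984 was -0.21 and was not called (adjusted p = 0.0600), whereas against MK37 alone it was -0.53. The largest difference, 0.86 for Olfr149 (adjusted p = 0.0408), was 0.20 and not called against MK37 alone (adjusted p = 0.295). The call was also lost with sex as a covariate (adjusted p = 0.0560), where 5 of 6 ΔHxΔP mice and 5 of 12 controls were male, with background subtracted (adjusted p = 0.0516) and in a linear model without moderation (adjusted p = 0.0722). In MK29 alone Olfr149 did not reach a median of 100 normalized counts and was not tested.

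Receptors also differed in how much they varied between mice of 1 group. The median SD of log2 counts over the 31 was 0.12 in 129 mice, 0.16 in MK29, 0.09 in MK37 and 0.16 in ΔHxΔP mice. For the 512 OR genes outside the cluster it was 0.11, 0.14, 0.12 and 0.18. The genes that varied most are missing from the 31 by the choice, which makes this median lower than it would be for the whole cluster. Within MK29 it ran from 0.05 for Olfr969 to 0.63 for Olfr149, within MK37 from 0.04 for Olfr895 to 0.21 for Olfr149, and within ΔHxΔP mice it was highest for Olfr894, 0.43. Olfr895 had a narrow range in MK37 (993 to 1070) and a wide one in MK29 (683 to 1194).

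Genes of the cluster were then compared for how they varied together between mice of mixed background, with group means removed. Pearson's r over 18 mice had a median of 0.38 for the 20 pairs whose starts lie under 50 kb apart, 0.35 for 70 pairs at 50 to 200 kb, 0.28 for 201 pairs at 200 kb to 1 Mb and 0.25 for 174 pairs over 1 Mb apart. OR pairs elsewhere on 1 chromosome had medians of 0.44, 0.38, 0.41 and 0.24 at the same distances. The receptors had a median of 0.21 with OR genes of other chromosomes. Pairs of the same MOR family had a median of 0.30 (56 pairs) and pairs of different families 0.27 (409 pairs). In the 6 wild-type 129 mice the medians by distance were 0.59, 0.52, 0.51 and 0.47, beside 0.53, 0.44, 0.46 and 0.28 elsewhere and 0.37 with other chromosomes. With the median of ratios as the scale, the medians in mixed mice were 0.24, 0.17, -0.02 and 0.07. OR pairs elsewhere on 1 chromosome then had 0.29, 0.21, 0.20 and 0.04, and the median with other chromosomes was 0.01. These are descriptions of pairs that share mice and lanes, with no test.

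**Figure D3:**
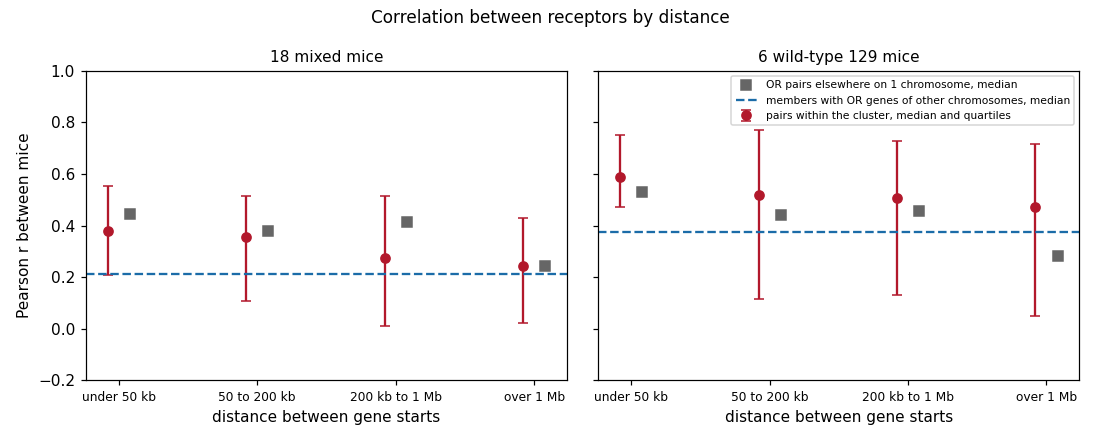
Pearson's r between mice of receptor pairs of the cluster by the distance of their starts (red, median and quartiles), of OR pairs elsewhere on 1 chromosome (grey squares) and of the 31 receptors with OR genes of other chromosomes (dashed line), in 18 mixed mice (left) and 6 wild-type 129 mice (right). The red medians go from 0.38 to 0.25 on the left, where their SEs from leaving out each mouse in turn were 0.16 and 0.10. On the right they go from 0.59 to 0.47, and a decline with distance was not tested. On the left none of them lies clearly above the grey square beside it.

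Of the 30 pairs of neighbouring receptors, 28 had r over 0 in the 18 mixed mice, with a median of 0.32, beside 368 of all 465 pairs of the 31 receptors and 10900 of 15097 pairs with OR genes of other chromosomes. None passed a permutation test within groups after adjustment over the 30 pairs (100000 permutations, two-sided), and 9 had an unadjusted p under 0.05. The highest r was that of Olfr934 and Olfr938, 0.67 (permutation p = 0.0400, adjusted p = 0.147), with a rho of 0.55 (permutation p = 0.0858) and an r of 0.54 without the 2 mice farthest from the median. Its r was 0.36 in MK29, 0.50 in MK37 and 0.74 in ΔHxΔP mice. Olfr960 and Olfr961 had r of 0.65, rho of 0.55 and a permutation p of 0.0117, and r fell to 0.38 without 2 mice. Within groups it was 0.94 in MK29, -0.17 in MK37 and 0.70 in ΔHxΔP mice, so the relation was not shared by all 3 groups. Olfr923 and Olfr930 had r of 0.63, rho of 0.64 and a permutation p of 0.0114, with r of 0.77, 0.39 and 0.73 within the groups and 0.64 without 2 mice. Olfr930 and Olfr934 had r of 0.62, with 0.84, 0.04 and 0.80 within the groups. Olfr961 and Olfr963 had r of 0.62, with 0.94, 0.78 and -0.14. The adjusted p of all 5 pairs was 0.147.

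Some receptors varied between mice by more than the rest, and they are described here after their values were seen. Mice of the mixed background fell on separate levels of Olfr893, a left-out gene of family MOR170, and several receptors varied with it. Olfr893 had 637, 1098, 949, 684, 225 and 244 counts in ΔHxΔP mice 1 to 6. It had 676 in 1 wild-type mouse of MK29 and 173 to 245 in the other 5, 1354 to 1560 in all 6 mice of MK37 and 172 to 259 in 129 mice. The left-out genes Olfr902, Olfr909, Olfr916 and Olfr975 varied with it, with r of 0.98 to 1.00 with Olfr893 in ΔHxΔP mice. In MK29 their r was 0.96 to 0.99, and in MK37 it was 0.86, 0.05, 0.41 and 0.51.

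Among the receptors, Olfr149 had 458, 536, 505, 450, 310 and 298 counts in ΔHxΔP mice 1 to 6. Its values were highest in the 2 mice with most Olfr893 and lowest in the 2 with least. Olfr25 had 411, 540, 550, 390, 382 and 314, and Olfr905 1124, 1078, 1024, 1128, 829 and 792. Olfr894 ran against Olfr893, with 725, 488, 497, 601, 915 and 973, and so did Olfr938, with 426, 431, 393, 449, 670 and 709. In the mouse of MK29 with 676 counts of Olfr893, Olfr149, Olfr25 and Olfr905 were at their highest of that group, 278, 438 and 724, and Olfr894 at its lowest, 626.

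Over the 6 ΔHxΔP mice r with Olfr893 was 0.99 for Olfr149, 0.87 for Olfr905, 0.85 for Olfr25, -0.97 for Olfr894 and -0.96 for Olfr938, with no test. Many OR genes ran against Olfr893 in these mice: r was under -0.8 for 15 of the 31 receptors (48.4%) and for 36.6% of 487 OR genes of other chromosomes. With the median of ratios as the scale these shares were 2 of 31, Olfr894 and Olfr938, and 15%. r over 0.8 was found for 3 of the 31, Olfr149, Olfr905 and Olfr25, and for 3.90% of OR genes of other chromosomes, and with the median of ratios for 9 of the 31 and 16.6%. In ΔHxΔP mice the direction held for these 5 receptors under all 3 scalings. By the median of ratios r was 0.99, 0.93, 0.91, -0.96 and -0.91. The 5 were named from r in these same mice, so this is no independent check. Among wild types, 6 on MK29 and 6 on MK37, r was 0.78 and 0.95 for Olfr149 and 0.87 and 0.87 for Olfr905. The MK29 values include the mouse with 676 counts of Olfr893, far above the rest of its group. With the positive controls alone the MK37 values were 0.48 for Olfr149 and 0.53 for Olfr905. On the scale of the 5 reference genes r was 0.82 and -0.54 for Olfr25, -0.72 and 0.55 for Olfr894 and 0.65 and -0.41 for Olfr938. For these 3 the direction was thus not shared by all groups on that scale. By the median of ratios Olfr25 had 0.75 and -0.26 in wild types, again of opposite sign. With the positive controls alone it had 0.68 and 0.38 in wild types and 0.84 in ΔHxΔP mice, the same direction throughout. Olfr894 then had -0.69 and 0.61 in wild types and Olfr938 0.28 and 0.48, against -0.97 and -0.93 in ΔHxΔP mice.

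**Figure D4:**
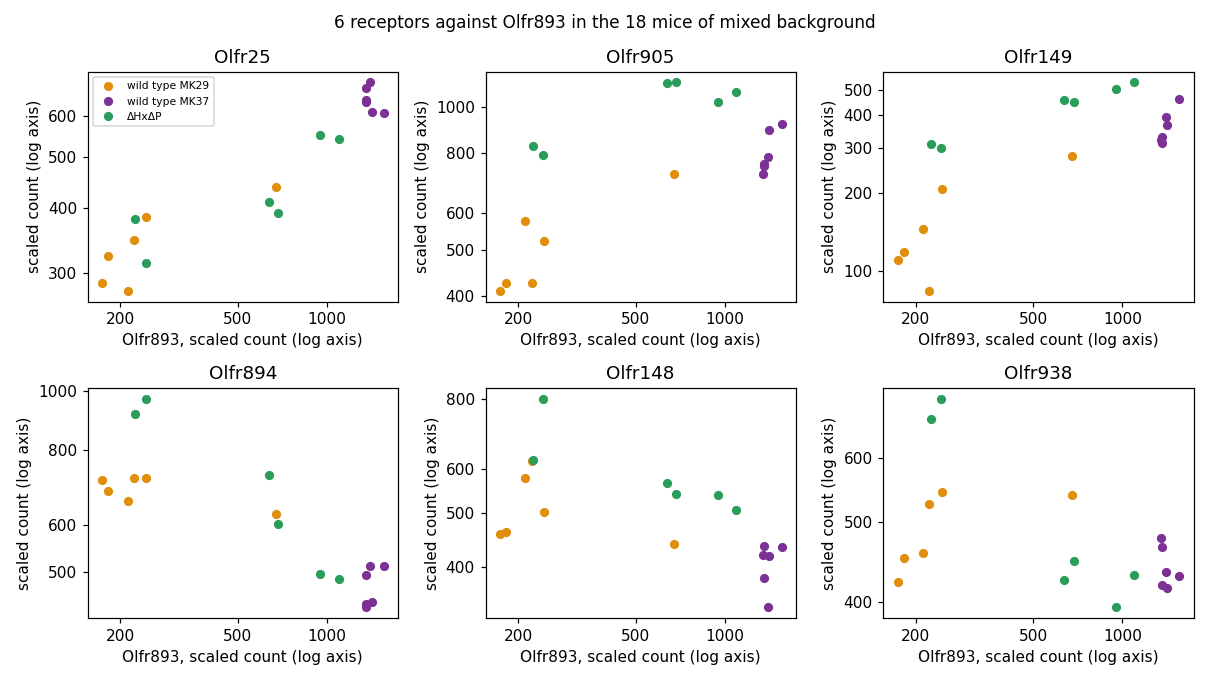
Scaled counts of 6 receptors against those of Olfr893 in the 18 mice of mixed background (both axes log), 1 point per mouse, coloured by group. Among ΔHxΔP mice Olfr149 goes from 298 counts at 244 of Olfr893 to 536 at 1098, and Olfr894 (bottom left) from 973 to 488, whereas MK37 mice, with 1354 to 1560 of Olfr893, have less Olfr149 (313 to 463) than the ΔHxΔP mouse at 1098.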

How the data were processed

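The authors deposited raw NanoString counts per probe and lane of a CodeSet for OR genes, in 1 table for 30 lanes, neither scaled nor background-subtracted per the file header and the study's methods. No column was left without a sample. Genes, order and start positions came from the study's OR naming table, for which the sources used here name no genome build. The members and lists were chosen with earlier results of these data known. Scale factors came from the geometric means of 6 positive controls and then of the 5 reference genes, over all 30 lanes together. Normalized counts are scaled counts less the lane's background, and values under 1 took that background. Groups follow the sample labels, and the labels name 1 mouse per lane.

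Differences were tested with limma 3.58.1 (R 4.3.3, mean-variance trend) on log2(scaled count + 1), for OR genes whose normalized counts had a median of 100 or more in wild types, and p-values were adjusted by Benjamini-Hochberg over all OR genes tested. The deposited table has empty cells, and sample names above its header kept it from being recorded as plain counts. A count model planned as an alternative was therefore not run, and limma was the main test. Genes with statistics are the 5 highest and 5 lowest receptors in 129 mice, the 5 smallest p-values of each other comparison and the 5 neighbouring pairs with the highest absolute r. Any further receptor was named with its values known. On simulated data limma recovered 91.9% of genes changed 1.3-fold in the ΔOlfr7Δ comparison (552 genes), 84.3% in the ΔHxΔP comparison (557 genes), and 96.8% and 91.8% in the 2 wild-type comparisons (549 genes). Correlations used 100000 permutations of mice within groups.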

Additional observations from a re-analysis of the deposited data

Results flagged for a closer look

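4 of 124 combinations of a receptor and a group held 1 mouse far from the other 5, as chance gives in about 1 of 20 groups. ΔOlfr7Δ mice were not examined in this way. Olfr901 had 1191 scaled counts in wild-type 129 mouse 2, where the others ran from 933 to 986. Olfr907 had 1044 in wild-type mouse 6 of MK37, below the 1150 to 1203 of the others. Olfr960 had 597 in ΔHxΔP mouse 6, above the 491 to 521 of the others. Olfr969 had 2410 in wild-type mouse 4 of MK37, below the 2602 to 2714 of the others.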

How the results depend on the processing

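Loss in ΔOlfr7Δ mice was called for 31 of 31 receptors under every alternative run, including the omission of each mouse in turn (31 to 31). The strain fixes this outcome, so it is no measure of robustness. Leaving out each mouse gave 12 to 15 calls in ΔHxΔP mice, 18 to 21 between 129 and mixed mice and 11 to 15 between the mixed groups. tTREAT at a fold change of 1.5 left 0 calls in ΔHxΔP mice, and every other total of calls stayed within 1.5 times the reported one. The split did not: the median of ratios gave 14 higher and 3 lower in ΔHxΔP mice in place of 7 and 7, and 5 and 13 between the mixed groups in place of 9 and 5. Positive controls alone moved the median log2 difference of all OR genes from 0.06 to 0.24 in ΔOlfr7Δ mice and from 0.10 to 0.19 between the mixed groups, where the median of ratios moved it to -0.01. For co-variation, the median of ratios gave a median r of 0.17 at 50 to 200 kb, -0.0249 at 200 kb to 1 Mb, which turned the sign, and 0.0682 over 1 Mb. Positive controls alone gave 0.54 under 50 kb and 0.39 at 200 kb to 1 Mb, where the 12 wild-type mixed mice also gave 0.39. The cause of these shifts was not tested. Leaving out each mouse, chosen after seeing the data like MK37 alone as control, moved the 4 medians within 0.27 to 0.45, 0.26 to 0.38, 0.24 to 0.32 and 0.17 to 0.28. With background subtracted, also chosen after seeing the data, the share of OR counts in 129 mice was 3.88%. The count model planned for the 4 comparisons was not run. No paired analysis was possible because the labels give the mice no shared replicate numbers. Low counts limit the ΔOlfr7Δ lanes, where most receptors have bounds, and Olfr149 in MK29, with a median of 93.4 normalized counts.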
